A study of Mus musculus with 12 samples.

Results

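The nuclear genes that encode subunits of the mitochondrial oxidative phosphorylation complexes were followed in microglial nuclei of the injured mouse spinal cord. Members were taken by symbol: a name starting with Nduf and a subunit letter and number, with Uqcr, with Cox and a number from 4 to 8 or with Atp5, or one of Sdha, Sdhb, Sdhc and Sdhd, with the biotype protein coding. This gave 84 of the 49585 genes in the deposited tables: 37 of complex I, 4 of complex II, 8 of complex III, 18 of complex IV and 17 of complex V. Another 6 rows with such names are processed pseudogenes and were left out. Of the 84 members, 76 had enough counts for a test. The 8 that did not were Ndufa1, Ndufa4l2, Cox4i2, Cox6a2, Cox7a1, Cox7b2, Cox8b and Cox8c. By symbol the set also takes in genes whose products are no fixed subunits: Atp5s and Atp5sl carry the RefSeq symbols Dmac2l and Dmac2, Cox7a2l encodes a factor that joins complexes III and IV, and the product of Ndufa4 is now placed in complex IV. In all counts and medians per complex, each stayed with the complex of its symbol.

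The study compared C57BL/6 mice after sham surgery with C57BL/6 mice 3, 7 and 14 days after spinal cord injury, with 3 libraries in each group. In the labels sham stands at 7 days. A library pooled cord tissue around the lesion from 3 animals, and nuclei positive for green fluorescent protein (GFP) were captured from it with an antibody and magnetic beads as microglial nuclei. The gene or promoter that drives GFP is not given in the sources used here. Nuclear RNA was sequenced, so the values are levels in the nucleus and not of cytoplasmic mRNA or protein.

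Oxidative phosphorylation makes most of the ATP of a resting cell. Electrons from NADH enter at complex I and those from succinate at complex II, pass through complex III and cytochrome c to complex IV, where oxygen is reduced, and the proton gradient built on the way drives the ATP synthase, complex V. The complexes other than II are built from subunits of both the nuclear and the mitochondrial genome. Resting microglia rely largely on this pathway, and activated microglia and macrophages are known to shift towards glycolysis. The mitochondrial genome's 37 rows were at 0 in every library, so the mitochondrially encoded subunits were not assessed.

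Total counts per library ranged from 4003480 to 10670804, and 18451 genes were tested. Levels within a group and folds are given as CPM, counts divided by a library size scaled with the trimmed mean of M-values, and levels of different genes are set side by side only as deposited RPKM, which are divided by gene length. A gene was called where its edgeR quasi-likelihood p, adjusted by Benjamini-Hochberg across the whole tested table, was below 0.05. These p-values measure the spread between pools. Counts of calls with 1 library left out cannot be read as particular to the members where no share of all genes stands beside them. Libraries are given in the order sham replicates 2, 3 and 4, 3-day replicates 1, 2 and 3, 7-day replicates 1, 3 and 4 and 14-day replicates 1, 2 and 3. Sham replicate 4 stood apart: its summed astrocyte markers reached 5806 CPM against 690.4 and 1662 in the other sham libraries. Most of that sum came from Slc1a3 (2394 CPM), Slc1a2 (1412), Aqp4 (1018) and Atp1b2 (706). Not every astrocyte marker rose there: Gja1 had 11.8, 10.5 and 10.1 CPM in sham and Fgfr3 14.8, 14.4 and 9.24. Summed microglial markers were 5826 to 7326 CPM in sham, 4025 to 4754 at 3 days, 5077 to 6584 at 7 days and 4457 to 5728 at 14 days.

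Within the nuclei the members differed widely in level. Over the 12 libraries the highest mean RPKM belonged to Atp5b, the catalytic beta subunit of the ATP synthase (46.9), followed by Sdha, the flavoprotein of complex II (37.7), Atp5c1, the rotor's gamma subunit (32.5), Atp5a1, the alpha subunit (27.8), and Ndufs8, a core iron-sulfur subunit of complex I (27.5). Cox8c had no count in any library, and Cox7b2 had a mean of 0.0636 RPKM. Where paralogues share a position in a complex, the widely expressed form was higher in each pair. Cox4i1 had 11.03 RPKM and Cox4i2 0.610. Cox6a1 had 11.6 and the heart and muscle form Cox6a2 1.61, Cox6b1 had 10.1 and the testis form Cox6b2 1.20, Cox7a2 had 10.0 and the muscle form Cox7a1 1.72, and Cox8a had 21.7 and Cox8b 0.556. Ndufa4 had 7.07 RPKM and Ndufa4l2 0.419. The genes of the c ring of the ATP synthase, whose mature products are the same protein, lay closer together, at 3.73 RPKM for Atp5g1, 7.44 for Atp5g2 and 9.75 for Atp5g3.

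Summed over the 84 members, the level was lowest at 3 days and lay in or above the sham range at 7 days. The sum was 2173, 1989.8 and 1735 CPM in sham, 1488, 1522 and 1441 at 3 days, 1922, 2330.4 and 2011 at 7 days and 1725, 1831 and 1676 at 14 days. The 3 libraries at 3 days lay below all 9 others. The 14-day libraries lay between those at 3 and 7 days and overlapped the sham range only through sham replicate 4. On the deposited RPKM the sums were 1026, 993.3 and 660.9 in sham against 663.0, 701.6 and 641.5 at 3 days, so sham replicate 4 lay among the 3-day libraries on that scale and above them on CPM. In bulk libraries, fewer nuclei with a high level and a lower level in each nucleus cannot be told apart.

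**Figure D1:**
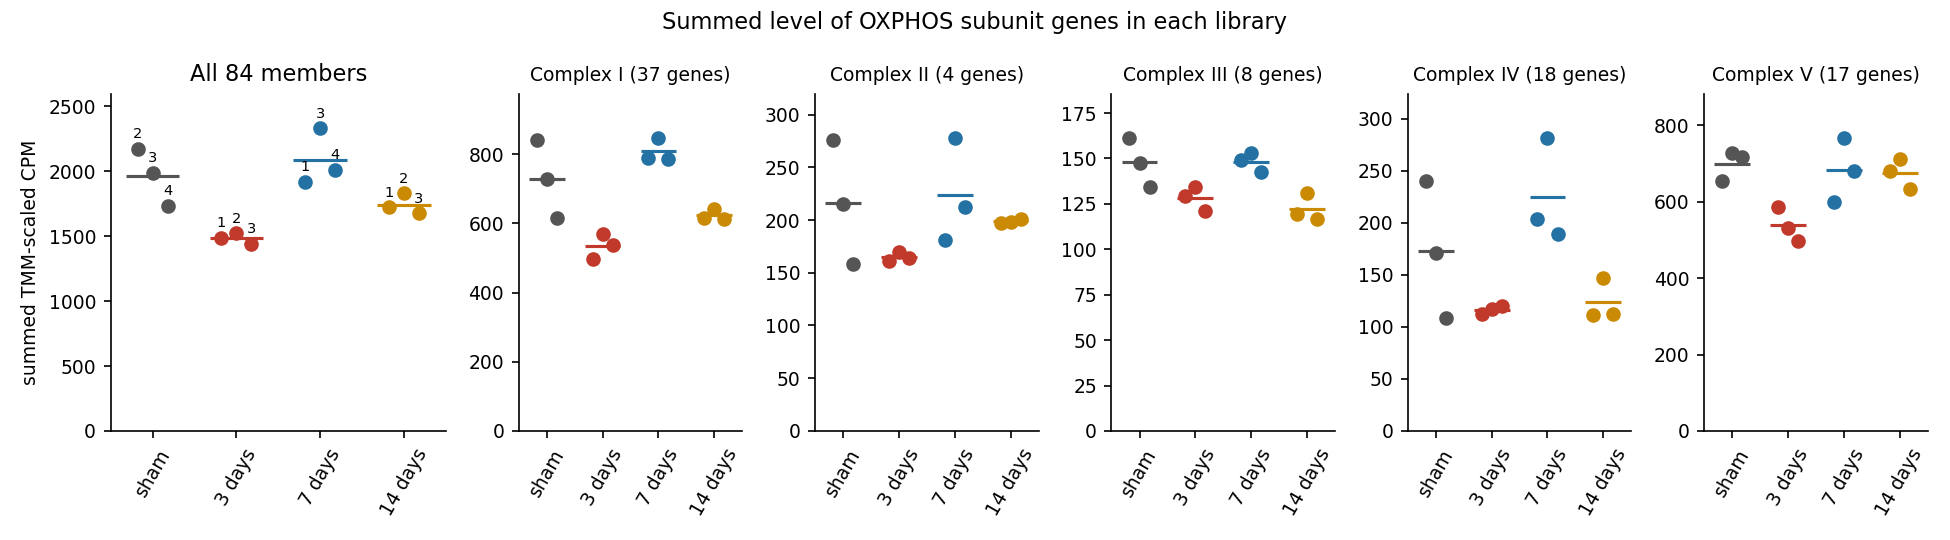
Summed TMM-scaled CPM of the subunit genes in each library (points, numbered by replicate in the first panel) for all 84 members and for each complex, with the group mean as a line. The 3-day libraries were the lowest in the sum of all members, and complex IV ranged from 108 to 240.5 CPM within sham alone.

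At 3 days 12 of the 76 tested members passed the test, all of them lower than in sham. This is 15.8% of those tested, beside 9.17% of all tested genes called lower at 3 days. The median log2 fold change was -0.56 over the 76 and -0.03 over all tested genes, and 65 of the 76 (85.5%) lay below 0, against 51.7% of all genes. In 20 members (26.3%) all 3 libraries lay below all 3 sham libraries, beside 15.5% of all genes. The medians were -0.56 for complex I, -0.33 for complex II, -0.41 for complex III, -0.77 for complex IV and -0.37 for complex V. At an unadjusted p under 0.05 there were 29 members. Without sham replicate 4 the count of members called lower at the adjusted threshold was 29, beside 10% of all genes called lower. Of the 12 calls, 10 were among them. The count of calls was 4, 4 and 3 without 3-day replicate 1, 2 or 3, and the median was -0.27 without sham replicate 2.

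From 3 to 7 days the calls lay in the other direction. At 7 days 17 of 76 (22.4%) were higher than at 3 days and none of the calls was lower, beside 5.85% of all genes called higher. The median log2 fold change was 0.68 over the 76 and 0.01 over all genes, and 70 members lay above 0. In 46 members (60.5%) all 3 libraries at 7 days lay above the 3 at 3 days, beside 19.5% of all genes. An unadjusted p under 0.05 was reached by 41 members. The count of calls, 17 with all libraries, was 38 without sham replicate 4 and 30 without sham replicate 2. It was 5, 5 and 2 without 3-day replicate 1, 2 or 3 and 5 and 4 without 7-day replicate 1 or 3. Without 14-day replicate 1, 2 or 3 it was 9, 10 and 8. The share of all genes called under each of these settings is not set beside the counts, so the shifts cannot be read as particular to the members. Of the 12 members lower at 3 days, 7 (58.3%) were among the 17 higher at 7 than at 3 days (41.2%). Both comparisons use the same 3-day libraries, so this overlap is not independent evidence.

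Against sham, 1 of 76 members was called at 7 days, the lower Uqcrfs1 (1.32%), beside 4.67% of all genes called lower. The median was 0.26 over the members and 0.01 over all genes, with 56 members above 0, and 10 members had an unadjusted p under 0.05. Without sham replicate 4 the members' median was 0.068 and that of all genes 0.0368, and it was 0.40 without sham replicate 2 and 0.42 with the replicate number as a block. The count of calls was 9 without sham replicate 2 (6 higher and 3 lower), 2 without sham replicate 3, 3 without 7-day replicate 3 and 0 without any other library.

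At 14 days 3 of 76 members (3.95%) were lower than in sham, Ndufa6, Cox4i1 and Cox5a, beside 4.79% of all genes called lower. The median was -0.31 over the members and -0.05 over all genes, and 58 members lay below 0. On RPKM the members' median was -0.04 with a pseudocount of 1 and -0.03 with 0.1, with 42 and 40 members below 0. Over all tested genes these RPKM medians were 0.09 and 0.13. At an unadjusted p under 0.05 there were 14 members. The count of calls, 3 with all libraries, was 12 without sham replicate 4, beside 7.36% of all genes called lower. It was 5 without 7-day replicate 3, 1 without sham replicate 2 or 3-day replicate 1 or 2 and 0 without 14-day replicate 1, 2 or 3. The median was -0.09 without sham replicate 2.

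From 7 to 14 days 1 member (1.32%), Cox4i1, was called lower, beside 0.835% of all genes. The median was -0.42 over the members and -0.05 over all genes, 63 members lay below 0 and 25 had an unadjusted p under 0.05. In 30 members (39.5%) the 3 libraries at 14 days lay below the 3 at 7 days, beside 16.7% of all genes. The count of calls, 1 with all libraries, was 14 without sham replicate 4, 12 without sham replicate 2 and 3 without 7-day replicate 4. It was 0 without 7-day replicate 1 or 3 or any of the 14-day libraries. Between 3 and 14 days edgeR called 0 of 76 members, beside 2.17% of all genes called higher and 5.14% called lower. There the median was 0.20, 10 members had an unadjusted p under 0.05, and DESeq2 called 3 and limma on RPKM 1. The edgeR count was 3 without sham replicate 2 or 4, 1 without sham replicate 3 and 2 without 7-day replicate 3. With all 4 groups in one test of any difference, 18 of 76 members (23.7%) were called, beside 26.4% of all genes, so the share of members that differed at all was near that of all genes. That count was 35 and 29 without sham replicate 4 or 2, 5, 6 and 7 without 3-day replicate 1, 2 or 3, 10 without 7-day replicate 1 and 7, 8 and 7 without 14-day replicate 1, 2 or 3. For none of the counts with a library left out in this paragraph is the share of all genes given, so these shifts cannot be read as particular to the members.

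**Figure D2:**
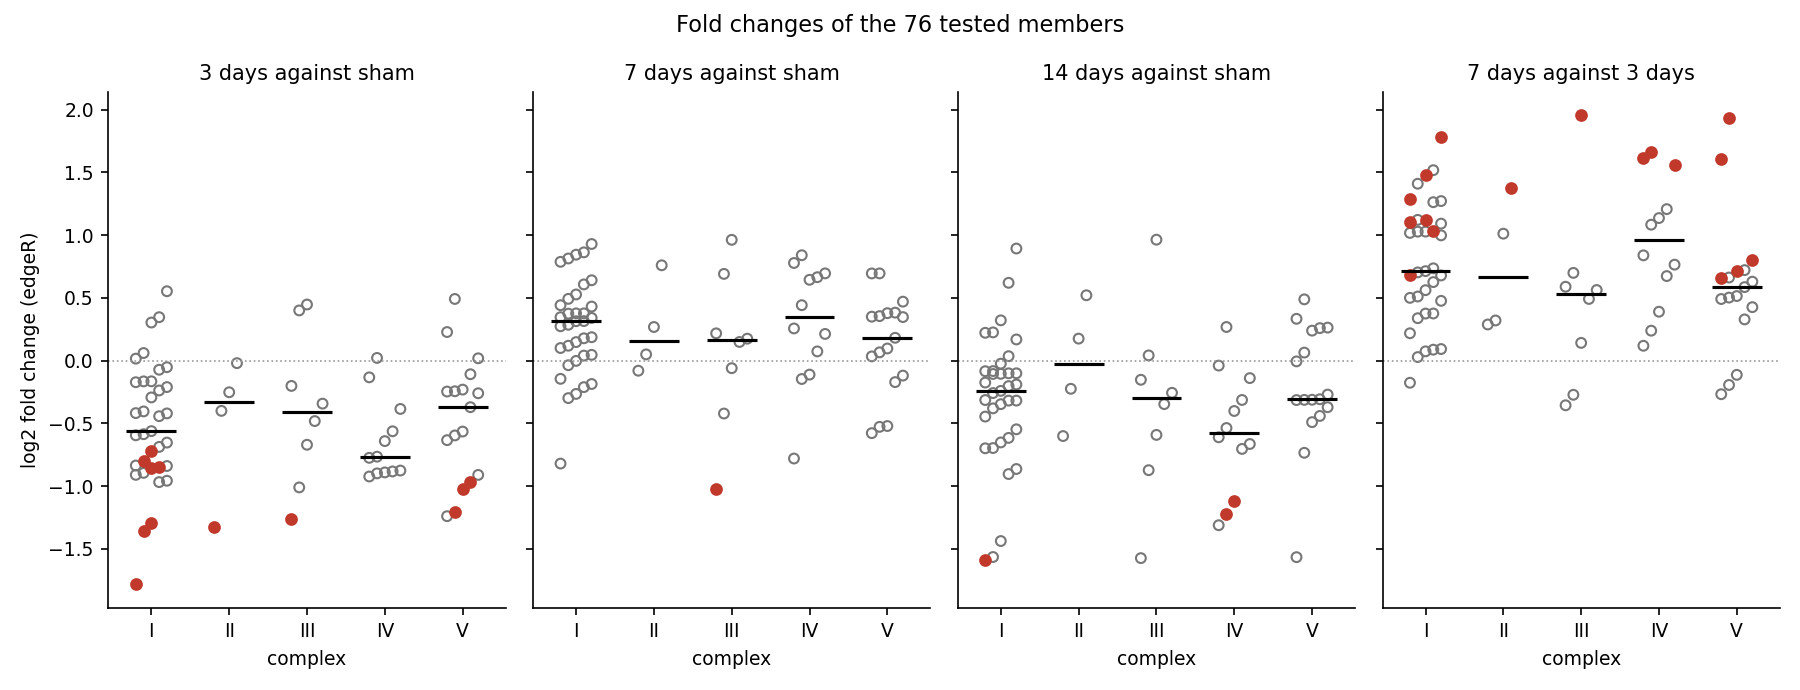
Log2 fold change of each tested member (edgeR), by complex, for 3 comparisons with sham and for 7 against 3 days. Filled points passed the threshold, open points did not, and bars are medians, which lay below 0 in every complex at 3 days and above 0 in every complex from 3 to 7 days.

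Complex I, the NADH dehydrogenase, held by symbol 7 of the 12 members called at 3 days. It held 7 of the 17 called from 3 to 7 days, with Ndufa4 counted among them. Ndufa9, an accessory subunit at the junction of the matrix and membrane arms (chr6:126821721-126849136, minus strand, GRCm38), had 31.6, 21.5 and 14.3 CPM in sham, 11.2, 12.7 and 13.5 at 3 days, 31.6, 34.2 and 26.1 at 7 days and 19.4, 19.6 and 18.5 at 14 days. The 3-day libraries were the lowest of all groups and the 7-day libraries lay above those at 3 and 14 days. Against sham at 3 days its log2 fold change was -0.86 ± 0.27 (SE; edgeR adjusted p = 0.0333), and it rose from 3 to 7 days by 1.29 ± 0.26 (SE; edgeR adjusted p = 0.00736). The call against sham ended without sham replicate 2 or any 3-day library (edgeR adjusted p = 0.0752 to 0.132), with the 2 groups fitted alone and on RPKM with either pseudocount. Ndufa10, an accessory subunit of the membrane arm (chr1:92439010-92473860, minus strand), had 75.4, 63.6 and 76.7 CPM in sham, 43.0, 35.2 and 45.6 at 3 days, 46.1, 71.3 and 57.8 at 7 days and 62.8, 64.5 and 63.7 at 14 days. The 3-day libraries lay below every other library, and the log2 fold change at 3 days was -0.80 ± 0.19 (SE; edgeR adjusted p = 0.0098). Its call ended without 3-day replicate 2 (edgeR adjusted p = 0.0527).

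Ndufa6, an accessory subunit that binds the mitochondrial acyl carrier protein, was low at both 3 and 14 days. It had 22.4, 9.37 and 9.52 CPM in sham, 3.64, 6.37 and 6.05 at 3 days, 8.80, 16.4 and 9.63 at 7 days and 4.52, 4.91 and 4.46 at 14 days. All libraries at 3 and 14 days lay below all of sham and of 7 days, and sham replicate 2 was far above the other sham libraries. The log2 fold change was -1.36 ± 0.39 (SE; edgeR adjusted p = 0.0244) at 3 days and -1.59 ± 0.40 (SE; edgeR adjusted p = 0.0221) at 14 days. Without sham replicate 2 the adjusted p was 0.127 and 0.0926, and both calls also ended without any 1 library of the injured group compared. Ndufb2, an accessory subunit of the membrane arm, had 42.7, 31.1 and 54.9 CPM in sham, 24.4, 24.7 and 22.3 at 3 days, 31.4, 52.5 and 32.2 at 7 days and 33.9, 29.9 and 34.7 at 14 days, with the 3-day libraries below all others. Its log2 fold change at 3 days was -0.85 ± 0.25 (SE; edgeR adjusted p = 0.0257), the call ended without sham replicate 4 (edgeR adjusted p = 0.0541) or any 3-day library, and its exons overlap those of Braf on the opposite strand and of the coding gene Gm42420 on the same strand.

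Among the core subunits of the matrix arm, Ndufv2 and Ndufs3 were called. Ndufv2, of the module that takes up NADH, had 34.1, 28.6 and 37.5 CPM in sham, 21.0, 22.1 and 17.8 at 3 days, 24.3, 36.3 and 36.8 at 7 days and 30.7, 28.1 and 28.1 at 14 days. The 3-day libraries lay below every other library. It was lower at 3 days by a log2 fold change of -0.72 ± 0.22 (SE; edgeR adjusted p = 0.0293) and higher at 7 than at 3 days by 0.68 ± 0.21 (SE; edgeR adjusted p = 0.0477). The former ended without any 3-day library (edgeR adjusted p = 0.0601 to 0.114), with the replicate block, with the 2 groups fitted alone or with no filter on low counts. The latter ended without any library other than sham replicate 2 or 4 or 7-day replicate 1 (edgeR adjusted p = 0.0513 to 0.194). Ndufs3, a core subunit of the module that reduces ubiquinone, had 59.8, 40.0 and 19.6 CPM in sham, 26.2, 29.6 and 24.0 at 3 days, 62.8, 62.0 and 48.9 at 7 days and 27.4, 25.2 and 25.8 at 14 days. Sham replicate 4 lay below the 3-day libraries, so sham and 3 days overlapped, while 7 days lay above 3 and 14 days. It rose from 3 to 7 days by 1.12 ± 0.29 (SE; edgeR adjusted p = 0.0224), and the call ended without any 3-day library or 7-day replicate 1 or 3 (edgeR adjusted p = 0.051 to 0.113). Ndufs1, the largest subunit, had 88.6, 86.4 and 66.3 CPM in sham, 71.3, 82.8 and 78.8 at 3 days, 76.3, 89.1 and 83.0 at 7 days and 81.5, 71.1 and 71.7 at 14 days, and all groups overlapped. Ndufs8 had 11.96, 24.9 and 16.0 CPM in sham, 22.1, 23.7 and 19.2 at 3 days, 39.2, 20.8 and 40.1 at 7 days and 29.8, 32.3 and 35.6 at 14 days, where all 3 libraries at 14 days lay above sham without a call. Ndufv1, which binds NADH, had 20.6, 20.1 and 8.96 CPM in sham, 13.9, 14.3 and 16.4 at 3 days, 22.0, 16.4 and 25.3 at 7 days and 10.2, 12.6 and 8.02 at 14 days, with 14 days below 3 and 7 days and overlapping sham. Ndufs7 had 13.3, 15.8 and 5.88 CPM in sham, 7.74, 11.2 and 10.8 at 3 days, 15.1, 8.45 and 14.3 at 7 days and 9.49, 8.42 and 9.80 at 14 days, and its groups overlapped.

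Ndufa2, an accessory subunit of the NADH-oxidizing module, had 5.90, 5.72 and 4.76 CPM in sham, 2.51, 2.88 and 1.44 at 3 days, 7.33, 7.92 and 3.61 at 7 days and 2.86, 2.10 and 3.79 at 14 days. The 3-day libraries were below sham and 7 days. Its log2 fold change was -1.29 ± 0.43 (SE; edgeR adjusted p = 0.0483) at 3 days and 1.48 ± 0.43 (SE; edgeR adjusted p = 0.0349) from 3 to 7 days. The call at 3 days ended without any library other than sham replicate 4 or 7-day replicate 3 or 4, with an adjusted p of 0.0565 to 0.181, and that from 3 to 7 days without any 3-day library, 7-day replicate 1 or 3 or 14-day replicate 1 or 3 (edgeR adjusted p = 0.0505 to 0.172). Ndufs5, on the intermembrane side, had 8.63, 4.57 and 1.4 CPM in sham, 1.37, 1.06 and 1.83 at 3 days, 3.35, 6.69 and 4.95 at 7 days and 1.66, 2.57 and 1.34 at 14 days. Sham replicate 4 lay within the 3-day range. The log2 fold change was -1.78 ± 0.57 (SE; edgeR adjusted p = 0.0375) at 3 days and 1.78 ± 0.56 (SE; edgeR adjusted p = 0.049) from 3 to 7 days, and the former had an adjusted p of 0.2 without sham replicate 2 and also ended without any 3-day library or 14-day replicate 1. The latter ended without any library other than sham replicate 2 or 4 (edgeR adjusted p = 0.0569 to 0.148). Ndufs5 is uncertain, since a near-identical pseudogene copy holds 217 counts and the gene 233. Ndufa13, a supernumerary subunit also known as GRIM-19, had 12.7, 8.23 and 9.24 CPM in sham, 7.52, 7.74 and 9.42 at 3 days, 24.3, 12.5 and 16.8 at 7 days and 7.23, 12.6 and 8.69 at 14 days and a log2 fold change from 3 to 7 days of 1.11 ± 0.32 (SE; edgeR adjusted p = 0.0324). Ndufa4 had 10.6, 12.3 and 7.28 CPM in sham, 6.61, 6.67 and 6.05 at 3 days, 12.2, 14.4 and 12.8 at 7 days and 8.74, 9.82 and 9.80 at 14 days and 1.03 ± 0.27 (SE; edgeR adjusted p = 0.0236) in that comparison. In both genes the 7-day libraries lay above all at 3 days. The call of Ndufa13 ended without any 3-day library, 7-day replicate 1 or 4 or 14-day replicate 3 (edgeR adjusted p = 0.0502 to 0.143), and that of Ndufa4 without any 3-day library or 7-day replicate 1 or 3 (edgeR adjusted p = 0.0543 to 0.108).

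Complex II, succinate dehydrogenase, is the one complex whose subunits are all nuclear. Sdhd, a membrane anchor (chr9:50596357-50603812, minus strand), had 14.5, 21.7 and 10.6 CPM in sham, 4.78, 6.07 and 7.59 at 3 days, 8.38, 16.9 and 23.0 at 7 days and 10.2, 9.12 and 11.6 at 14 days. The 3-day libraries were below all others. Against sham at 3 days its log2 fold change was -1.33 ± 0.37 (SE; edgeR adjusted p = 0.0211), and it rose from 3 to 7 days by 1.38 ± 0.37 (SE; edgeR adjusted p = 0.0246). Without sham replicate 3 or 3-day replicate 1 or 2 the 3-day adjusted p was 0.0721, 0.0688 and 0.0671, and the later rise ended without any 3-day library or 7-day replicate 3 or 4 (edgeR adjusted p = 0.0646 to 0.0906). Sdha had 212, 161 and 121 CPM in sham, 127, 126 and 122 at 3 days, 120.5, 207 and 141 at 7 days and 138, 139.6 and 146 at 14 days, and Sdhb, the iron-sulfur subunit, had 24.1, 19.0 and 4.48 CPM in sham, 14.6, 12.6 and 13.5 at 3 days, 25.1, 31.3 and 25.5 at 7 days and 17.9, 19.4 and 17.4 at 14 days. Sdhb in sham replicate 4 was the lowest of the 12 libraries, at 4.48 CPM. Sdhc, the other anchor, had 24.8, 13.9 and 21.6 CPM in sham, 14.3, 24.6 and 20.5 at 3 days, 27.0, 22.5 and 23.4 at 7 days and 30.6, 30.4 and 25.8 at 14 days, and the 14-day libraries lay above sham and 3 days. None of these 3 passed a test.

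Complex III, which passes electrons from ubiquinol to cytochrome c, had 1 member called at 3 days. Uqcr10, a small subunit (chr11:4701973-4704342, minus strand), had 13.5, 8.00 and 4.48 CPM in sham, 2.73, 5.46 and 2.79 at 3 days, 11.7, 19.0 and 12.04 at 7 days and 5.73, 4.91 and 6.91 at 14 days. The 7-day libraries lay above 3 and 14 days, and sham replicate 4 overlapped the 3-day range. The log2 fold change was -1.26 ± 0.42 (SE; edgeR adjusted p = 0.0459) at 3 days and 1.95 ± 0.42 (SE; edgeR adjusted p = 0.00864) from 3 to 7 days. The former ended without any library other than sham replicate 4, 3-day replicate 2 or 7-day replicate 3 (edgeR adjusted p = 0.0513 to 0.198) and the latter without 3-day replicate 3 (edgeR adjusted p = 0.0622). Uqcrfs1, the Rieske iron-sulfur protein, had 25.0, 14.9 and 24.6 CPM in sham, 15.7, 13.2 and 11.8 at 3 days, 7.12, 15.0 and 9.49 at 7 days and 12.4, 11.2 and 11.6 at 14 days. Against sham its log2 fold change at 7 days was -1.03 ± 0.30 (SE; edgeR adjusted p = 0.0445), with 7-day replicate 3 just above sham replicate 3. That call ended without any library other than sham replicate 3 or 7-day replicate 3, with an adjusted p of 0.0536 to 0.164. Uqcrc1, a core protein, had 25.0, 37.5 and 23.5 CPM in sham, 36.0, 39.0 and 42.1 at 3 days, 41.7, 23.4 and 32.1 at 7 days and 26.8, 35.1 and 26.7 at 14 days. Uqcrc2, the other core protein, had 48.1, 54.0 and 58.2 CPM in sham, 50.8, 47.9 and 40.7 at 3 days, 50.9, 53.2 and 49.5 at 7 days and 51.4, 49.3 and 43.2 at 14 days. Both overlapped sham at every time, and neither was called.

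Complex IV, cytochrome c oxidase, had the lowest median at 3 days but no call there. Cox4i1, the widely expressed form of subunit IV (chr8:120668222-120674207, plus strand), had 28.8, 20.8 and 8.40 CPM in sham, 10.9, 8.65 and 12.01 at 3 days, 34.6, 26.9 and 31.7 at 7 days and 10.7, 7.71 and 6.46 at 14 days. The 7-day libraries lay above all at 3 and 14 days, and sham ran from the 14-day range in replicate 4 to the 7-day range in replicate 2. It rose from 3 to 7 days by 1.56 ± 0.35 (SE; edgeR adjusted p = 0.0118), and it was lower at 14 days than in sham by -1.22 ± 0.36 (SE; edgeR adjusted p = 0.0439) and than at 7 days by -1.89 ± 0.36 (SE; edgeR adjusted p = 0.02). The call against sham at 14 days ended without any library other than sham replicate 4 or 7-day replicate 3 (edgeR adjusted p = 0.0533 to 0.18). The lower level at 14 than at 7 days lost its call without 7-day replicate 1 or 3 or any 14-day library (edgeR adjusted p = 0.0612 to 0.0973). Exons of Cox4i1 overlap those of Emc8 on the opposite strand.

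Cox5a, a matrix-side subunit, had 8.48, 11.4 and 12.04 CPM in sham, 5.69, 6.07 and 5.28 at 3 days, 5.03, 7.40 and 6.02 at 7 days and 4.97, 6.08 and 3.56 at 14 days, and every injured library lay below every sham library. The log2 fold change at 14 days was -1.12 ± 0.32 (SE; edgeR adjusted p = 0.0403), and the call ended without sham replicate 3 or 4, 3-day replicate 1 or 2 or any 14-day library (edgeR adjusted p = 0.055 to 0.186). Exons of Cox5a overlap those of Gm26631, a non-coding gene on the opposite strand. Cox5b, the other matrix-side subunit, had 36.9, 15.3 and 2.80 CPM in sham, 8.20, 11.2 and 10.95 at 3 days, 29.3, 39.6 and 27.9 at 7 days and 8.44, 7.95 and 6.24 at 14 days, and the sham libraries alone spanned the ranges at 3 and 14 days. It was higher at 7 than at 3 days by 1.66 ± 0.52 (SE; edgeR adjusted p = 0.0484). Cox7a2l had 31.3, 15.3 and 5.88 CPM in sham, 7.74, 12.3 and 11.05 at 3 days, 32.9, 35.0 and 28.2 at 7 days and 13.1, 10.5 and 11.4 at 14 days and a log2 fold change of 1.61 ± 0.41 (SE; edgeR adjusted p = 0.0189) from 3 to 7 days. In both genes the 7-day libraries lay above those at 3 and 14 days. The call of Cox5b ended without any library other than sham replicate 2 or 4 (edgeR adjusted p = 0.0557 to 0.15), and that of Cox7a2l without 3-day replicate 1 or 3 or 7-day replicate 1 or 3 (edgeR adjusted p = 0.0592 to 0.0822). Cox7c, the most abundant member of the complex at 24.1 RPKM, had 37.8, 33.6 and 24.4 CPM in sham, 26.2, 24.1 and 23.4 at 3 days, 13.2, 61.6 and 12.2 at 7 days and 17.9, 32.5 and 22.7 at 14 days, with 7-day replicate 3 far above replicates 1 and 4. Cox8a had 13.3, 11.9 and 9.52 CPM in sham, 10.7, 9.56 and 11.5 at 3 days, 17.4, 12.9 and 11.6 at 7 days and 8.74, 15.0 and 10.5 at 14 days. Of the 6 members of the complex that were not tested, Cox4i2 reached 1.64 CPM in 14-day replicate 2 and was at 0 in 2 sham and 2 7-day libraries.

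In complex V, the ATP synthase, 3 members by symbol were called at 3 days, with Atp5s counted among them, and 5 from 3 to 7 days. Atp5f1, the b subunit of the peripheral stalk (chr3:105942698-105960099, minus strand), had 41.3, 52.6 and 77.0 CPM in sham, 30.3, 25.9 and 27.6 at 3 days, 35.6, 47.5 and 35.4 at 7 days and 44.6, 49.6 and 43.0 at 14 days. The 3-day libraries lay below every other library. Its fall at 3 days, -1.02 ± 0.23 (SE; edgeR adjusted p = 0.0065), was the one call against sham at 3 days that passed under every alternative setting. Its exons overlap those of Wdr77 on the opposite strand. Atp5l, subunit g (chr9:44912557-44920742, minus strand), had 50.3, 39.3 and 47.9 CPM in sham, 27.3, 26.2 and 17.0 at 3 days, 33.3, 54.1 and 34.8 at 7 days and 41.0, 32.3 and 37.2 at 14 days. The log2 fold change was -0.97 ± 0.24 (SE; edgeR adjusted p = 0.0129) at 3 days and 0.80 ± 0.24 (SE; edgeR adjusted p = 0.0426) from 3 to 7 days, and without 3-day replicate 3 these had adjusted p of 0.066 and 0.2. The latter call also ended without any other library at 3 or 14 days or 7-day replicate 1 or 3, and exons of Atp5l overlap those of its antisense gene Gm30934. Atp5s had 19.2, 16.9 and 45.6 CPM in sham, 10.2, 13.2 and 11.5 at 3 days, 17.8, 22.5 and 14.0 at 7 days and 15.2, 16.6 and 16.9 at 14 days, where sham replicate 4 was far above the other sham libraries. Its log2 fold change at 3 days was -1.21 ± 0.34 (SE; edgeR adjusted p = 0.0209), with an adjusted p of 0.0699 without sham replicate 4, 0.0633 without 3-day replicate 1 and 0.0701 without 3-day replicate 3.

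Of the catalytic head, Atp5a1 had 108, 98.3 and 54.0 CPM in sham, 71.1, 73.6 and 75.2 at 3 days, 108, 142 and 111 at 7 days and 69.6, 73.6 and 66.8 at 14 days and was higher at 7 than at 3 days by 0.72 ± 0.22 (SE; edgeR adjusted p = 0.0418). Atp5c1 had 62.8, 70.0 and 80.6 CPM in sham, 59.0, 43.1 and 42.4 at 3 days, 67.2, 97.6 and 63.1 at 7 days and 58.2, 51.7 and 54.8 at 14 days and 0.66 ± 0.21 (SE; edgeR adjusted p = 0.0464) in the same comparison. The 7-day libraries of both lay above all at 3 days. The call of Atp5a1 ended without any library outside sham (edgeR adjusted p = 0.0547 to 0.136), and that of Atp5c1 without any library other than sham replicate 2 or 4, 3-day replicate 1 or 7-day replicate 4 (edgeR adjusted p = 0.0569 to 0.189). Atp5b had 135, 238 and 268 CPM in sham, 202, 172 and 161 at 3 days, 118, 153 and 173 at 7 days and 260.4, 274 and 221 at 14 days, and it was the one member whose 14-day libraries all lay above those at 7 days, without a call, beside 14.0% of all genes. Atp5e, the epsilon subunit, had 10.9, 4.57 and 3.64 CPM in sham, 4.33, 3.79 and 2.50 at 3 days, 10.5, 13.4 and 8.02 at 7 days and 5.73, 5.38 and 5.12 at 14 days and a log2 fold change from 3 to 7 days of 1.61 ± 0.42 (SE; edgeR adjusted p = 0.0217). Atp5k, subunit e of the membrane part, had 6.96, 2.29 and 1.4 CPM in sham, 1.37, 1.52 and 1.73 at 3 days, 8.59, 6.69 and 2.94 at 7 days and 1.21, 1.4 and 1.11 at 14 days and 1.93 ± 0.57 (SE; edgeR adjusted p = 0.0362). Both small subunits were higher in sham replicate 2 and the 7-day libraries than in any other library. The call of Atp5e ended without 3-day replicate 2 or 3 or 7-day replicate 1 or 3 (edgeR adjusted p = 0.0563 to 0.122), and that of Atp5k without any library at 3 or 14 days or 7-day replicate 1 or 3 (edgeR adjusted p = 0.0527 to 0.132). Atp5sl had 24.2, 26.5 and 14.6 CPM in sham, 28.9, 28.8 and 34.4 at 3 days, 27.7, 25.4 and 32.2 at 7 days and 26.1, 22.0 and 30.7 at 14 days, the one member whose 3-day libraries all lay above sham, without a call, beside 18.7% of all genes.

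**Figure D3:**
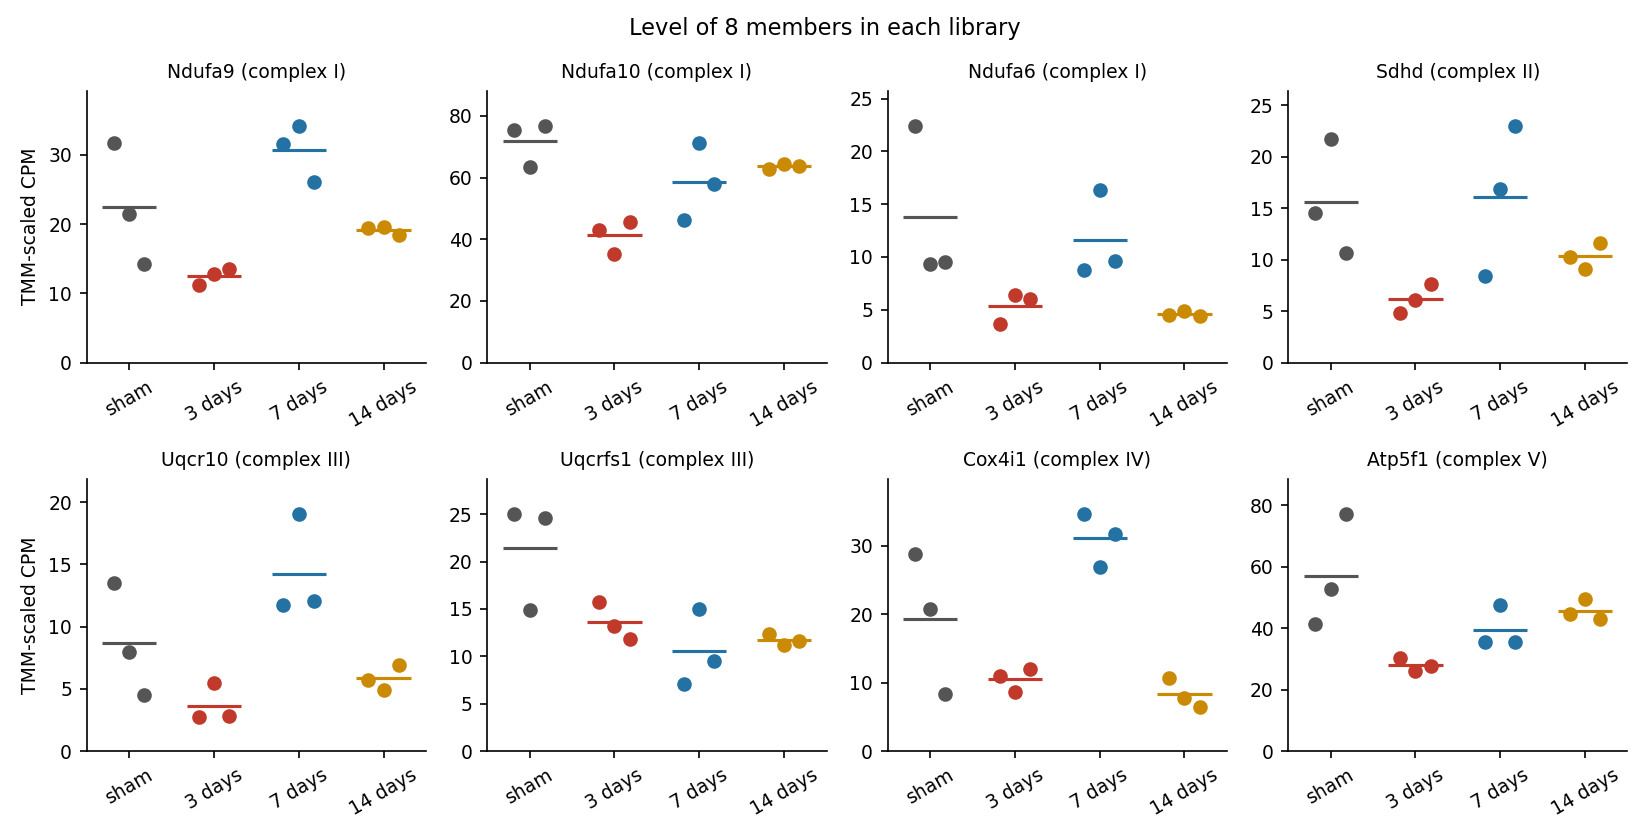
TMM-scaled CPM of 8 members in each library (points) with the group mean (line). Atp5f1, Ndufa10, Ndufa9 and Sdhd were lowest at 3 days, Cox4i1 and Uqcr10 stood out at 7 days, and Ndufa6 was low at both 3 and 14 days.

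Calls were not equally firm. Under 20 alternative settings, Atp5f1 at 3 days and Ndufa9 and Cox4i1 from 3 to 7 days kept their calls in each. No called change turned its direction. The 7-to-3-day calls of the other 15 members each ended without at least 1 library. At the other end, Cox4i1 at 14 days against sham ended in 13 settings, Uqcr10 at 3 days in 12, Uqcrfs1 at 7 days in 12, and from 3 to 7 days Cox5b and Ndufv2 in 14 each, Atp5c1 in 12, and Ndufs5 in that comparison in 13 of the 19 where it was tested.

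**Figure D4:**
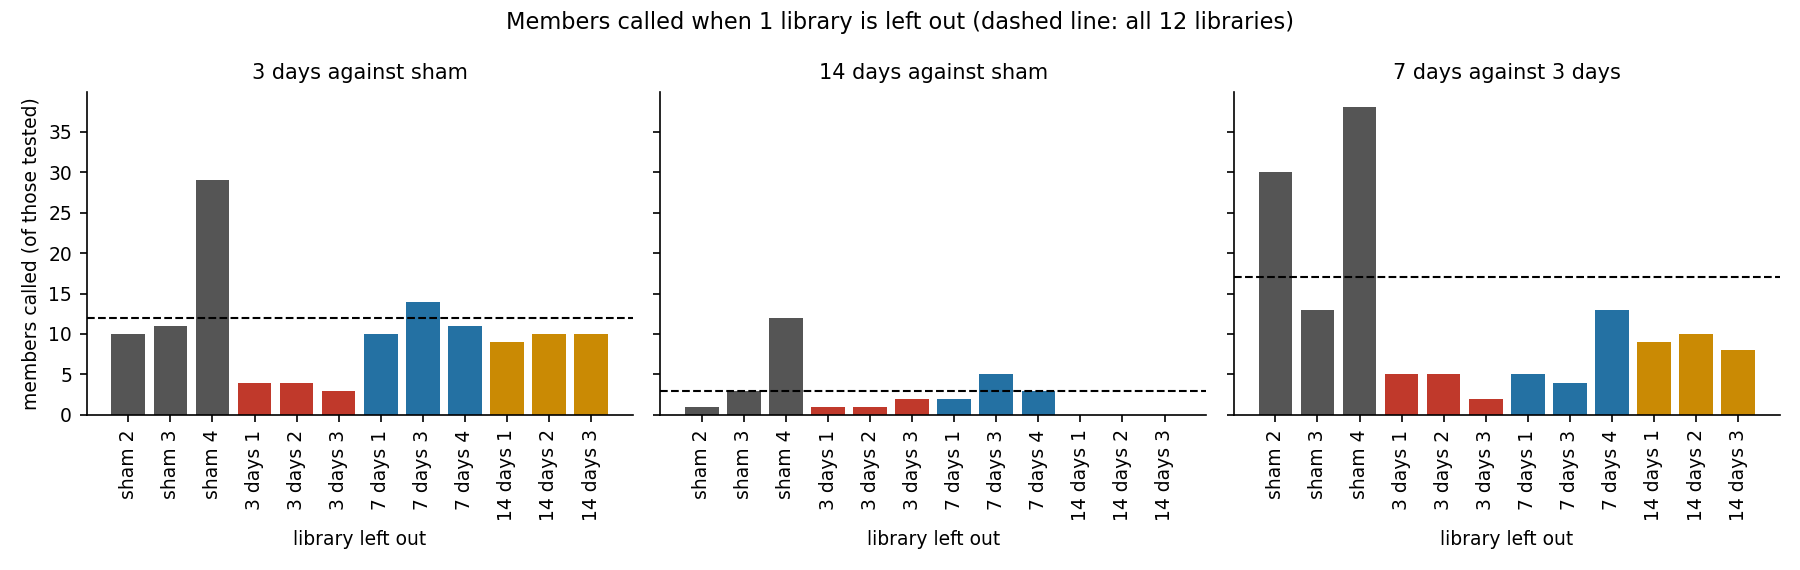
Number of members called (bars) when 1 library is left out, for 3 comparisons, with the count over all 12 libraries as a dashed line. Leaving out sham replicate 4 raised the count in each of them, to 29, 12 and 38. At 3 and 14 days 10% and 7.36% of all genes were then called lower than in sham. For 7 against 3 days that share is not given here, so the rise cannot be read as particular to the members.

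The genes that assemble the complexes or feed them with electrons were tested beside the subunits, and their counts stand beside the 9.17% of all genes called lower at 3 days and the 10.9% called higher. Of 14 assembly factors of complex I, 2 were lower at 3 days, Ndufaf2 with a log2 fold change of -2.05 ± 0.42 (SE; edgeR adjusted p = 0.004) and Nubpl with -0.79 ± 0.26 (0.0459), and their median was -0.18. Ndufaf2 rose from 3 to 7 days by 2.46 ± 0.42 (edgeR adjusted p = 0.00317). Of 31 tested assembly factors of complexes II to V, 3 were lower at 3 days, among them Sdhaf3 (-1.02 ± 0.25, edgeR adjusted p = 0.0102) and the copper chaperone Cox17 (-0.73 ± 0.18, 0.0131). Of 17 electron carriers and further subunits outside the name rule, the 2 called at 3 days were lower, Cycs, which encodes cytochrome c (-1.34 ± 0.43, edgeR adjusted p = 0.0374), and Etfdh (-0.90 ± 0.25, 0.0216). Ndufaf2 kept both calls whichever library was left out, while Sdhaf3 and Cox17 lost theirs without 3-day replicate 3 and Cycs, Etfdh and Nubpl without sham replicate 4 or 3-day replicate 2 or 3. Cycs and Nubpl also lost theirs without sham replicate 3 or 3-day replicate 1, and Nubpl without 7-day replicate 1 or any 14-day library.

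Glycolysis is the other main route to ATP. Of 20 glycolysis genes, 10 were higher at 3 days and 1, Ldhb, was lower, beside 10.9% and 9.17% of all genes. Their median log2 fold change was 0.57. The higher genes included Pfkl (1.96 ± 0.24, edgeR adjusted p = 7.7e-05), Pkm (1.36 ± 0.17, 0.000111) and Ldha (1.60 ± 0.22, 0.000198). These 3 kept their calls whichever library was left out, and Ldhb lost its call without sham replicate 2 or 3-day replicate 2 or 3. At 7 days 5 glycolysis genes were higher than in sham and none was called lower, beside 4.61% of all genes called higher, and at 14 days 7 were higher and 1, Hk3, was lower, beside 5.02% and 4.79%. From 3 to 7 days 2 were higher and 4 lower, beside 5.85% and 7.52% of all genes, with a median of -0.30. The difference between glycolysis genes and subunits was not tested. The 3-day counts of the lists that follow stand beside the same 10.9% of all genes called higher and 9.17% called lower. Of 18 genes of the citric acid cycle and pyruvate dehydrogenase, Ogdh was higher at 3 days and Sucla2 and Fh1 were lower. Of 17 regulators of mitochondrial biogenesis, Pprc1 and Twnk were higher at 3 days and Polg2 and Esrrg lower. At 7 days Twnk was higher and Esrrg and Ppargc1a lower, beside 4.61% and 4.67% of all genes. Ppargc1a, the coactivator PGC-1alpha, had 17.4, 25.4 and 88.5 CPM in sham and 9.64, 12.9 and 11.8 at 7 days (log2 fold change -1.92 ± 0.46, edgeR adjusted p = 0.0206). Sham replicate 4 was far above the other sham libraries in Ppargc1a and in Esrrg, which had 13.8, 20.6 and 62.1 CPM there. Without that library neither gene was called at 7 days nor Esrrg at 3 days, and the log2 fold change at 7 days was -0.90 for Ppargc1a and -0.81 for Esrrg. Their calls at 7 days also ended without 7-day replicate 1 or 4, and that of Esrrg without 7-day replicate 3. At 3 days Esrrg also lost its call without any 3-day library, Polg2 without 3-day replicate 3, and Twnk without any library other than sham replicate 4 or 3-day replicate 1. The call of Twnk at 7 days ended without 7-day replicate 1 or 4. Of 7 tested uncoupling proteins and carriers, Ucp2 was higher and the nucleotide exchanger Slc25a4 lower at 3 days. Sucla2 and Slc25a4 kept these calls whichever library was left out. Ogdh lost its call without 3-day replicate 3, Fh1 without that library or sham replicate 2, and Ucp2 without sham replicate 2 or 3 or any library at 3 or 14 days.

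As lists of other housekeeping genes, cytosolic ribosomal proteins and the proteasome were set beside the members. The 76 ribosomal protein genes had a median log2 fold change of 0.04 at 3 days, where the members had -0.56. Of these genes 4 were higher and 2 lower at 3 days, beside 10.9% and 9.17% of all genes. From 3 to 7 days the ribosomal median was 0.75, with 14 higher, beside 0.68 and 17 for the members and 5.85% of all genes called higher. For 31 proteasome genes the medians were -0.13 and 0.33, and edgeR called none in either comparison. Members are short, with a median of 1551 bases of annotated exon against 4279 for tested coding genes. Among the 342 coding genes of up to 1 kb the median was -0.29 at 3 days and 0.53 from 3 to 7 days. The 19 members of that class, which are among the 342, had -0.77 and 1.00. In the classes of 1 to 2 kb, 2 to 4 kb and over 4 kb the coding medians at 3 days were 0.01, 0.08 and 0.04. Those of the members there were -0.58, -0.33 and -0.44. From 3 to 7 days the coding medians of these classes were 0.16, -0.01 and -0.12, and those of the members 0.71, 0.51 and 0.33.

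Marker genes of microglia and of other cells were called in these comparisons too. Of all genes, 10.9% were called higher and 9.17% lower at 3 days. The shares were 5.85% and 7.52% from 3 to 7 days and 5.02% and 4.79% at 14 days against sham. Of 15 microglial markers 5 were lower and 1 higher at 3 days, 6 were higher from 3 to 7 days, and 4 were lower and 1 higher at 14 days than in sham. Of 9 markers of border-associated macrophages 4 were lower and 1 higher at 3 days and 5 were lower at 14 days, with sums of 486 to 924 CPM in sham, 318 to 537 at 3 days, 396 to 679.6 at 7 days and 254 to 412 at 14 days. Summed neuron markers were 1871 to 3574 CPM in sham, 873 to 1026 at 3 days, 1012 to 1334 at 7 days and 1293 to 1896 at 14 days, and 10 of 15 were lower at 3 days. Endothelial markers were 45.3 to 201 CPM in sham, 275 to 695 at 3 days, 49.6 to 67.4 at 7 days and 426 to 441 at 14 days. All 12 were lower at 7 than at 3 days, and Cldn5 was at 0 in 7-day replicates 1 and 3. Fibroblast and pericyte markers were 67.5 to 558 CPM in sham, 407 to 1030.5 at 3 days, 67.2 to 180.3 at 7 days and 679 to 793 at 14 days. Markers of monocyte-derived macrophages were 178 to 348 CPM in sham, 1278 to 1774 at 3 days, 322 to 679 at 7 days and 815 to 932 at 14 days, and F10 was at 0 in all sham libraries. The part of these cells, of gene length and of sham replicate 4 in the members' differences was not tested.

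**Figure D5:**
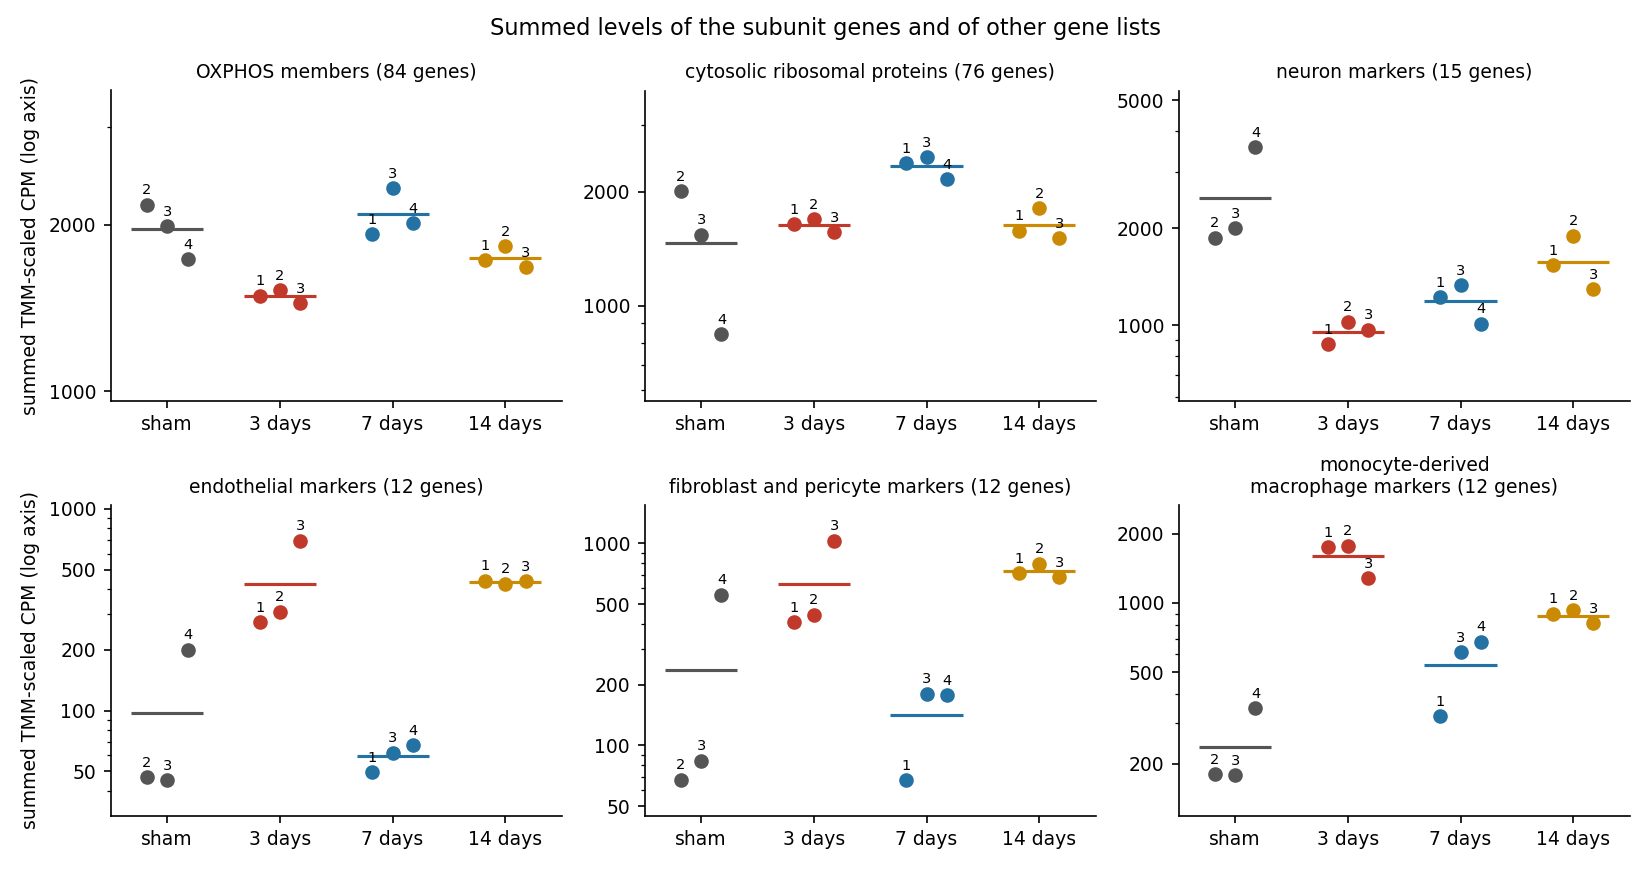
Summed TMM-scaled CPM (log axis) of the members and of 5 other lists in each library, numbered by replicate, with the group mean as a line. The members were lowest at 3 days. Markers of monocyte-derived macrophages were highest at 3 days, and endothelial markers were high at both 3 and 14 days. Ribosomal protein genes were highest at 7 days.

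Reads of a member can be shared with a copy or an overlapping gene. A pseudogene that matches at 95% identity or more over at least 200 bases was found for 18 of the 76 tested members, and 58 had none. The copies of Atp5h held 447 counts beside 1879 for the gene, those of Ndufa12 235 beside 622, and those of Atp5l 300 beside 2448. Of the calls, 9 of 12 at 3 days and 11 of 17 from 3 to 7 days were in members with no such copy. Strand use in counting is not given in the sources used here. Atp5a1, Atp5l, Cox5a, Ndufa2, Ndufa13, Ndufs3 and Ndufa9 share exon stretches with genes on the opposite strand. The longest stretch per gene ran from 66 bases in Ndufa2 to 375 in Ndufa13. Without the strand setting, whether the counts of these members include reads of the partner genes cannot be told.

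The promoters of these genes are known to carry sites for a small set of factors, among them NRF1, GABP of the ETS family, YY1 and the estrogen-related receptors (ERR). RefSeq promoter windows (build GRCm38.p6, 250 bases before to 50 after the start) were matched for 69 of the 84 members. The ETS letters CCGGAAG were found on either strand in 16 of the 69 (23.2%), against 9.93% of all 27025 genes with a window. The YY1 letters AAGATGGCG were in 8 (11.6% against 1.64%), the NRF1 letters GCGCATGCG in 8 (11.6% against 1.95%) and the ERR letters TCAAGGTCA in 2 (2.9% against 0.466%). The ETS letters end in the AAG with which the YY1 letters begin, so a single stretch can hold both. A match is a description of the letters and not a measured site. All genes with a window served as background, whether or not they were tested in these nuclei. The higher shares are therefore not shown to be particular to these subunits. The following stretches were chosen after the matches were seen, as called members with a motif upstream of the start and outside any annotated exon. They run 5′ to 3′ on the minus strand that the genes are read from, with the ETS letters, here as their reverse complement CTTCCGG, in capitals. In Atp5l the NRF1 letters, as their reverse complement CGCATGCGC, are in capitals too and start 241 bases before the annotated start. The ETS letters start 102, 212 and 46 bases before the annotated start of Atp5e, Atp5l and Sdhd.
Atp5e, chr2:174464106-174464351: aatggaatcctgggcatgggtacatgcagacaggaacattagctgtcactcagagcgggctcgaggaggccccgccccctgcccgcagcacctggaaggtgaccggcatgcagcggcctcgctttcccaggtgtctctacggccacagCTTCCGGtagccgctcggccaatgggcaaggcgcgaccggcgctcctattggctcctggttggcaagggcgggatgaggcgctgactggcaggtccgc
Atp5l, chr9:44920752-44920992: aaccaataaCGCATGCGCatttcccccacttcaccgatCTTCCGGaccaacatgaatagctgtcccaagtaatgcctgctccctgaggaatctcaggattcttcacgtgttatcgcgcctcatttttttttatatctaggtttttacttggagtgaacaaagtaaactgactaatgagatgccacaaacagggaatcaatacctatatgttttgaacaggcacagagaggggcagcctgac
Sdhd, chr9:50603850-50603909: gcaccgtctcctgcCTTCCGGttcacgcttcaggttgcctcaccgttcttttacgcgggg
Atp5l and Sdhd were lower at 3 days, and all 3 genes were higher at 7 than at 3 days. Only called members were chosen, so these calls say nothing about the motifs.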

How the data were processed

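Nuclear RNA was sequenced in 12 libraries. Per the labels' protocols, nuclei were purified on an iodixanol gradient, captured by GFP, and their RNA was amplified isothermally from a single primer. The authors deposited 2 tables per Ensembl gene, raw counts (unit: count) and RPKM, and the RPKM equalled the count over gene length and library total to within a relative difference of 6.6e-15. Per the submitters' processing notes, counting used featureCounts 1.4.6-p3, with GRCm38 and mm10 named as builds. Aligner, strand setting and treatment of multiply matching reads: not given in the sources used here. Each column matched 1 library by its label.

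The analysis used R 4.3.3 and edgeR 4.0.16. Of all genes, the 18451 that passed filterByExpr (99.6% of counts) were normalised by TMM. A quasi-likelihood fit of the 4 groups took in all 12 libraries (common biological coefficient of variation 0.271), and p-values were adjusted by Benjamini-Hochberg over every tested gene, with 0.05 as the threshold. Each SE is the log2 fold change over the root of its F statistic. Depth was 4003480 to 10670804 counts per library. Within a group, libraries correlated at 0.88 to 0.979 in log2 CPM and differed beyond sampling noise (chi-square of at least 4.76 per degree of freedom), so none was a duplicate. The alternatives were median-ratio size factors, no filter or a stricter one on low counts, a replicate block, fits restricted to the groups compared, DESeq2 1.42.0, limma 3.58.1 on log2 RPKM (pseudocounts 1 and 0.1), and leaving out each library in turn. The code was tested on simulated data. Positions and exon overlaps came from GENCODE on GRCm38, promoter windows from RefSeq on GRCm38.p6, and pseudogene copies from blastn 2.17.0. Plots came from matplotlib 3.10.9 under Python 3.11.15.

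The members and all lists were chosen with earlier results of these data known. Any member could be named; the separate values of some are not reported here. Full values were given per complex and comparison to up to 4 called members with the smallest adjusted p, to the most abundant ones where none was called, to complex II, paralogue groups and core subunits, and up to 4 called genes were named per other list.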

Additional observations from a re-analysis of the deposited data

Results flagged for a closer look

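In 17 of 76 members (22.4%) the effect of injury against sham differed between 7 and 3 days, by the direct edgeR test of 7 against 3 days, in which sham cancels. All were higher at 7 days, beside 5.85% of all genes called higher. The log2 difference was Uqcr10 1.95, Atp5k 1.93, Ndufs5 1.78, Cox5b 1.66, Cox7a2l 1.61, Atp5e 1.61, Cox4i1 1.56, Ndufa2 1.48, Sdhd 1.38, Ndufa9 1.29, Ndufs3 1.12, Ndufa13 1.11, Ndufa4 1.03, Atp5l 0.80, Atp5a1 0.72, Ndufv2 0.68 and Atp5c1 0.66, with an adjusted p from 0.00736 (Ndufa9) to 0.049 (Ndufs5). In each of the 17, all 3 libraries at 7 days lay above the 3 at 3 days. The 17 were chosen by a test on these same libraries, so this adds no support. Over all 76 members the share was 60.5%, beside 19.5% of all genes. Cox4i1 also differed between 14 and 7 days, with a log2 difference of -1.89 (edgeR adjusted p = 0.02), and its 14-day libraries lay below those at 7 days. Of all genes, 0.835% were called lower there and 16.7% had all 14-day libraries below those at 7 days.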

How the results depend on the processing

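No called member changed its direction under any alternative. Leave-one-out counts of called members ran from 3 to 29 for 3 days against sham, 0 to 9 for 7 days, 0 to 12 for 14 days, 2 to 38 for 7 against 3 days, 0 to 14 for 14 against 7 days, 0 to 3 for 14 against 3 days and 5 to 35 for any difference, and the library behind each extreme is named in the report. With median-ratio size factors or the stricter filter 14 against 3 days gave 1 call each, in place of 0. Without a filter on low counts the counts were 2 at 7 days, 8 at 14 days and 12 for 14 against 7 days. A fit of only the groups compared gave 4 at 3 days, 0 at 7 days, 0 at 14 days, 29 for 7 against 3 days, 14 for 14 against 7 days and 12 for 14 against 3 days. DESeq2 gave 2 at 7 days, 5 at 14 days, 11 for 14 against 7 days, 3 for 14 against 3 days and 30 for any difference. On log2 RPKM limma gave 1 for 14 against 3 days with either pseudocount, 10 (pseudocount 1) and 9 (0.1) for any difference, and with 0.1 it gave 11 for 7 against 3 days and 0 for 14 against 7 days. The cause of these shifts was not tested. The share of all genes called also moved with the setting. Without sham replicate 4 it was 10% lower at 3 days in place of 9.17%, and 7.36% lower at 14 days in place of 4.79%. For the other settings such shares are not set beside the counts here, so those shifts cannot be read as particular to the members. On RPKM with a pseudocount of 1 the members' median at 3 days was -0.33, and that of all tested genes was 0.04.

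No pairing of the libraries by replicate number was seen. Deviations from the group means correlated at -0.298 to 0.0693 over 13 pairs with the same number in different groups. They correlated at -0.192 to 0.244 over 41 pairs with other numbers. With 3 libraries a group, such correlations cannot settle whether the numbers stand for a pairing. With the replicate block, 8 members were called at 3 days, 1 at 7 days (higher), 3 at 14 days, 28 for 7 against 3 days, 15 for 14 against 7 days, 0 for 14 against 3 days and 22 for any difference.

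With 3 pools a group and counts of under 10 CPM for many small subunits, modest changes are not resolved. Sham replicate 4 was low and sham replicate 2 high for many members. Mitochondrially encoded subunits, protein and respiration were not measured.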
